A study of Caenorhabditis elegans with 2 samples.

Results

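The genes sls-2.1, sls-2.2, sls-2.4, sls-2.8 and sls-2.9 encode SL2 spliced leader RNAs of the nematode Caenorhabditis elegans. They were selected on the measured data, as the sls genes with a summit of the optimal peak list within 250 bp. The WBcel235 RefSeq annotation names 31 genes whose name starts with sls-, 19 of them SL2 genes and 12 of them SL1 genes. The selected genes are 5 of these 31, out of 46890 annotated nuclear genes. The study was a chromatin immunoprecipitation sequencing (ChIP-seq) experiment on whole animals of strain OP543, a stable transgenic line that makes SDZ-38 with a GFP-FLAG tag at its C terminus. Per the labels, the animals were young adult hermaphrodites collected 64 hours after eggs obtained by bleaching had been synchronized as starved L1 larvae. The chromatin was sheared by sonication, and the antibody was against GFP per the description, whereas the antibody field reads sdz-38. There was 1 group with 2 biological replicates, and what drives the transgene is not given in the sources used here. No untagged library was analysed here, so whether the summits mark SDZ-38 was not tested, and whole animals do not tell in which cells the signal arose.

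Spliced leader RNAs are short non-coding RNAs made by RNA polymerase II and packed with Sm proteins into small ribonucleoprotein particles. Each gives its 5′ end, the leader, to the 5′ end of other messages by trans-splicing. In C. elegans the SL1 leader is added mainly to the first or only gene of a transcript, and SL2 leaders are added mainly to the downstream genes of operons, where several genes are transcribed as 1 precursor. Promoters of spliced leader and other snRNA genes carry a proximal sequence element, which the SNAP complex binds.

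The leader is what these genes give to other RNAs, and the SL2 copies differ in it, so the RNA genes of 3 of the 5 are shown with sls-2.3, the closest copy of sls-2.2, which had no optimal summit. All sequences are from the RefSeq WBcel235 genome and are written as DNA, 5′ to 3′ on the gene's own strand. Capitals mark the leader, read as the bases up to the AG that precedes the GT of the 5′ splice site. sls-2.1 is chrII:5844865-5844974 on the plus strand, sls-2.2 is chrII:5543598-5543707 on the plus strand, sls-2.8 is chrIII:12250465-12250575 on the plus strand, and sls-2.3 is chrII:5544164-5544273 on the minus strand.
sls-2.1: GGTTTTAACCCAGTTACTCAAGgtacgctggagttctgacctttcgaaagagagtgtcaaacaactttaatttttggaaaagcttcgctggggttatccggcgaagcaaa
sls-2.2: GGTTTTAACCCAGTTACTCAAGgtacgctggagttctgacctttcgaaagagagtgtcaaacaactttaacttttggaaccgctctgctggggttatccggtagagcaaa
sls-2.8: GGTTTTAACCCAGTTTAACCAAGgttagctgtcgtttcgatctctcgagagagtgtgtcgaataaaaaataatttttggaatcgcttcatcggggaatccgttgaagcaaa
sls-2.3: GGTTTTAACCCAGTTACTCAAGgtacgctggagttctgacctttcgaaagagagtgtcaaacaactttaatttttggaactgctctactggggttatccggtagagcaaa

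The 19 SL2 genes held 12 different leaders of 21 to 23 bases. sls-2.1, sls-2.2 and sls-2.4 shared 1 leader of 22 bases with sls-2.3, and these were all the genes that had it. sls-2.8 had a leader of 23 bases and sls-2.9 one of 21 bases, and no other SL2 gene had either. The next largest set with 1 leader, sls-2.5, sls-2.6 and sls-2.7, held none of the 5 genes. Thus a leader shared with a gene that had an optimal summit did not always go with such a summit, as sls-2.3 shows. From base 1 at the 5′ end, sls-2.2 and sls-2.3 differed at 3 of 110 bases, the first at base 71. sls-2.1 and sls-2.2 differed at 8 bases, the first at base 71, and sls-2.1 and sls-2.3 also differed at 8, the first at base 80. All of these differences lay in the part that stays behind when the leader is given away.

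Over the whole gene, identity between the 5 genes ran from 71.6% to 96.4% in 10 pairs, with a median of 76.3%. Between these 5 and the 14 other SL2 genes it ran from 67.8% to 97.3% in 70 pairs, with a median of 74.8%, and among the 14 others the median was 76.6% in 91 pairs. The 5 genes were therefore about as like the other SL2 genes as they were like each other. The closest copy of sls-2.1 was sls-2.2 or sls-2.3, each with 92.7% identity. That of sls-2.2 was sls-2.3 (97.3%), and that of sls-2.4 was sls-2.2 (96.4%). The remaining pair stood further from every other copy, sls-2.8 at no more than 83.2% (with sls-2.7) and sls-2.9 at no more than 77.2% (with sls-2.3). SL1 genes reached 44.5% to 63.0% identity with the 5 genes.

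**Figure D1:**
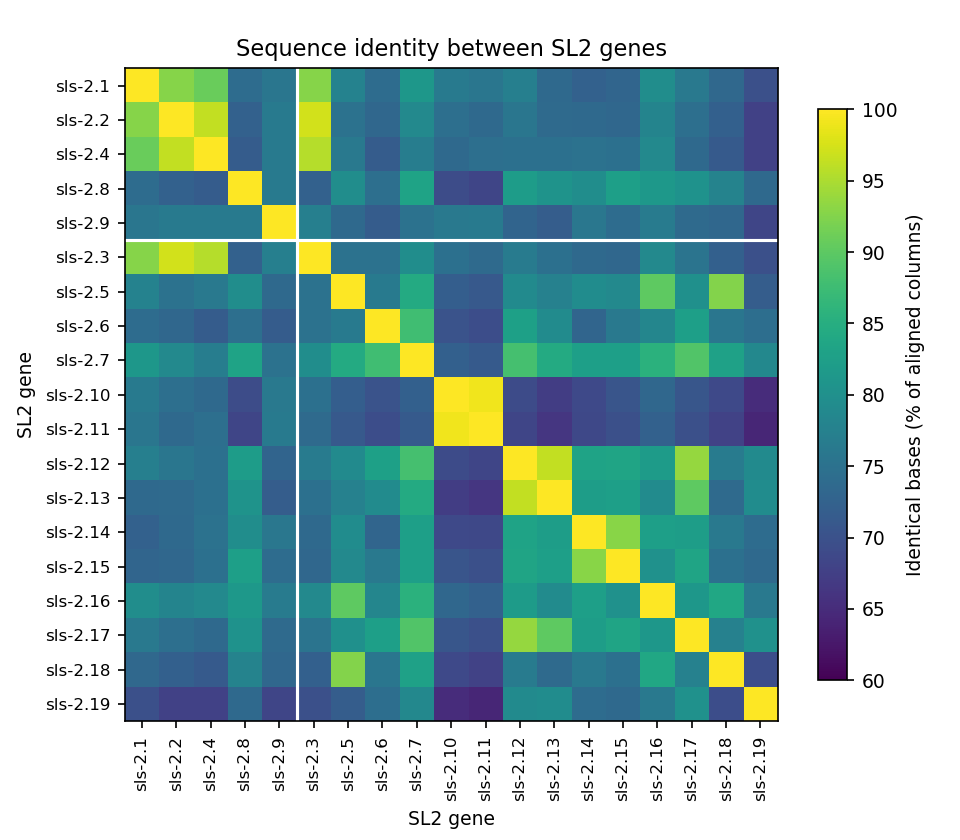
Identity between each pair of the 19 SL2 genes, as the percentage of aligned columns with the same base (colour, 60 to 100). The 5 genes with an optimal summit come first, bounded by white lines. sls-2.1, sls-2.2, sls-2.4 and sls-2.3 have 90.9% to 97.3% with each other. sls-2.3 comes first past the line, after sls-2.8 and sls-2.9, so its cells stand apart from those of the others.

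The Sm proteins bind a U-rich stretch of the RNA, and the 8-letter word ATTTTTGG, which holds such a stretch, was found in 4 of the 5 genes and in 10 of the 14 other SL2 genes. sls-2.2 had ACTTTTGG at the same place, base 70. None of the 12 SL1 genes held the word, whose letters were chosen from the SL2 copies.

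The bases just before the 5′ end are shown next, since promoter elements of such genes lie there and the selected copies were compared for a common word. Each line gives the 100 bases upstream, from the same genome and on the gene's strand, at chrII:5844765-5844864 (plus), chrII:5543498-5543597 (plus), chrIII:12250365-12250464 (plus) and, for sls-2.3, chrII:5544274-5544373 (minus). Capitals mark GTCNGTNCAC, in which N is any base. This word was chosen after the sequences had been seen, as the best match common to all 5 genes with 10 letters.
sls-2.1 upstream: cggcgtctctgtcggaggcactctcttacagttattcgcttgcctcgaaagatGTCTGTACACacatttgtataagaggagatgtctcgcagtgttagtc
sls-2.2 upstream: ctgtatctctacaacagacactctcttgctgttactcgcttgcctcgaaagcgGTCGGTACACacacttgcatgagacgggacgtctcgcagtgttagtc
sls-2.8 upstream: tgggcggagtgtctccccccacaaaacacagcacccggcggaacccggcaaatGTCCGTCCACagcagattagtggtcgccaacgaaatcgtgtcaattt
sls-2.3 upstream: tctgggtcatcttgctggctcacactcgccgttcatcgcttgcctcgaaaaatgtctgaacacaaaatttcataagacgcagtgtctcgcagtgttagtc

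In all 5 genes the word began 47 bases before the 5′ end. The search compared only stretches at nearly the same distance from the 5′ end and preferred equal distances. Nothing is therefore read from the shared place. Apart from it, little was common to all 5 upstream stretches. Those of sls-2.1, sls-2.2 and sls-2.4 were more alike, with 70.2% to 79.0% identity, and sls-2.3 had 67.0% to 75.7% with these. Pairs with sls-2.8 or sls-2.9 among the 5 genes had 49.2% to 52.6%. Over all 10 pairs of the 5 genes, upstream identity had a median of 52.0%. No word of 6, 7 or 8 bases was found in all 5, on either strand. The 2 words of 5 bases found in all 5 are each other's reverse complement, so they are a single word read on both strands. Searched on both strands of the same 100 bases, the word was present in 5 of the 14 other SL2 genes (35.7%), in 0 of the 12 SL1 genes and in 24 of 99 other snRNA genes (24.2%). Of 19971 protein-coding genes 17 had it (0.0851%), and of all 46890 nuclear genes 68 did (0.145%). Beside the shared words and this word, no motif was searched there. The other SL2 genes with it were sls-2.10 and sls-2.11, at 46 bases, and sls-2.12, sls-2.17 and sls-2.19, at 47 bases. The fixed letters are those identical in the 5 genes, so near matches elsewhere counted as absent. sls-2.3 was such a case. It had gtctgaacac at the same place, which matches the word except for an a in place of the T of GTN.

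Few of the other genes with the word had an optimal summit. Of the 63 other genes that had it, 1 had an optimal summit within 250 bp (1.59%), 3 had a pooled-list summit (4.76%), 16 a replicate 1 summit (25.4%) and 14 a replicate 2 summit (22.2%). Over all nuclear genes the shares were 0.316%, 2.99%, 25.1% and 19.6%. Both other snRNA genes with an optimal summit, sup-6 and W05B2.8, lacked the word.

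All 5 genes had a summit within 250 bp in each of the 4 lists of build ce11. These lists were the optimal list of 102 regions, kept by the authors for how well ranks repeat between replicates, the pooled list of 1242 regions from both replicates together, and lenient lists of 17743 regions in replicate 1 and 12648 in replicate 2. The signal value of a region is the authors' own score, whose scale is not stated, and ranks run from 1 for the strongest region of a list. Ranks from lists of different lengths show no change between the lists. The optimal list was made up of the 102 strongest pooled regions, so the optimal and pooled values of a gene are the same. In both lists 21 regions lay on the mitochondrial genome, ahead of every nuclear region. Since these values chose the genes, they are described without a test.

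sls-2.9 had the strongest region of the 5 in the pooled list, with a signal value of 82.2 at rank 44. The summit of this region lay 179 bp upstream of sls-2.9, within a tRNA-Lys gene. The pooled region with its summit inside sls-2.9 had 61.9 at rank 106. The strongest region beside sls-2.9 had 37.9 in replicate 1, at rank 91, and 41.5 in replicate 2, at rank 44. sls-2.1 followed in the pooled list, with 81.7 at rank 45, and had 47.5 in replicate 1 at rank 37 and 33.5 in replicate 2 at rank 90. These were the only genes of the 5 whose region stood among the first 102 of both replicates, and they were ordered in opposite ways by them.

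sls-2.2 had a signal value of 72.1 in the pooled list, at rank 60. It had the strongest region of the 5 in replicate 2, with 49.7 at rank 31, and the weakest in replicate 1, with 26.5 at rank 765. sls-2.8 had 67.5 in the pooled list at rank 74, 28.3 in replicate 1 at rank 504 and 41.7 in replicate 2 at rank 43. sls-2.4 had 63.2 in the pooled list at rank 98, 31.9 in replicate 1 at rank 252 and 36.1 in replicate 2 at rank 68. For these 3 genes the place in the optimal list went with a high rank in replicate 2, while in replicate 1 they stood outside the first 102 regions.

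**Figure D2:**
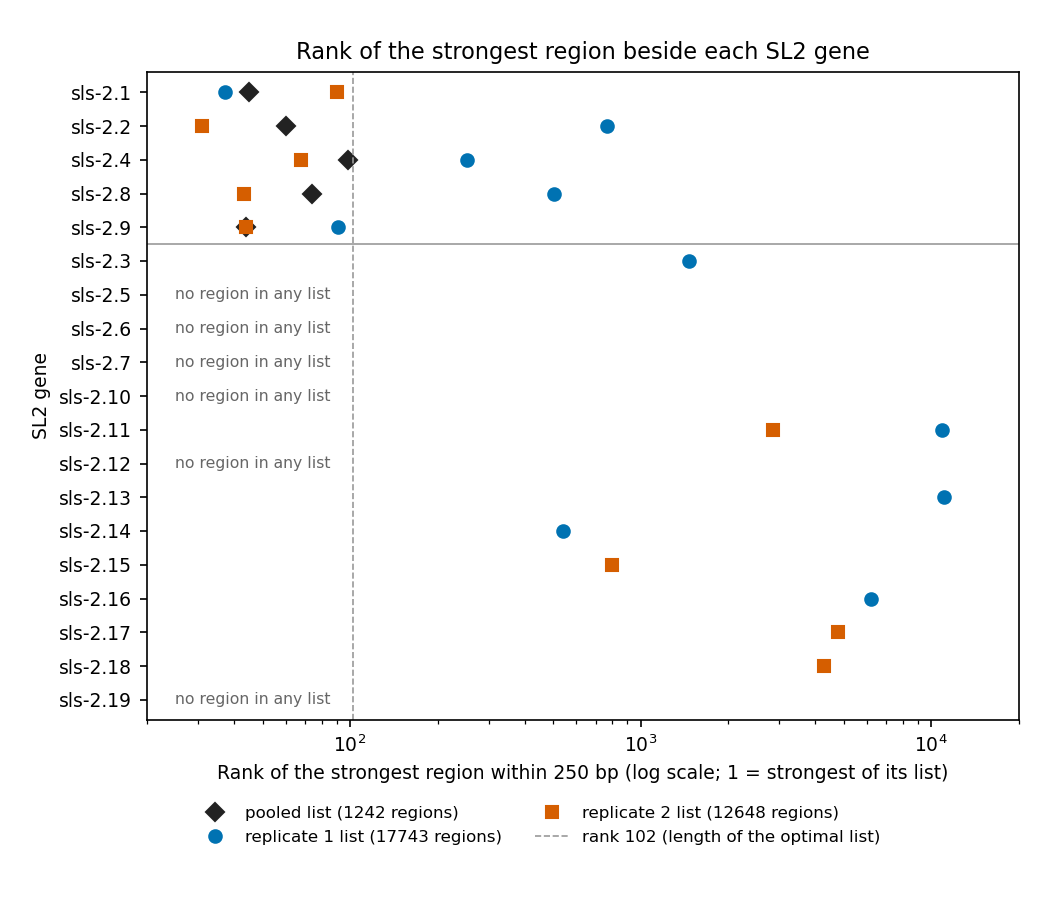
Rank of the strongest region within 250 bp of each of the 19 SL2 genes (log axis, 1 is the strongest of its list), in the pooled list, replicate 1 and replicate 2. The 5 genes with an optimal summit are above the grey line, and all their pooled and replicate 2 ranks lie left of the dashed line at rank 102. For sls-2.9 the pooled and replicate 2 symbols overlap at rank 44. None of the 14 other genes has a pooled region.

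Taken as a set, the 5 genes had pooled signal values of 63.2 to 82.2 with a median of 72.1, and ranks of 44 to 98 with a median of 60. For sls-2.9 the region used here has its summit in the tRNA-Lys gene upstream. In replicate 1 the signal values ran from 26.5 to 47.5 with a median of 31.9, and the ranks from 37 to 765 with a median of 252. In replicate 2 the signal values ran from 33.5 to 49.7 with a median of 41.5, and the ranks from 31 to 90 with a median of 44. The median rank was 1.42% of the list's length in replicate 1 and 0.348% in replicate 2. Nuclear regions reached 164.8 in the pooled list, 103.5 in replicate 1 and 82.6 in replicate 2, with medians of 44.0, 16.5 and 15.5. All 5 genes were above the median nuclear region of the pooled list, which the rule that chose them had fixed in advance. They were also above it in both replicates, from which the pooled list was made, so nothing is read from this. In each list they were well short of the strongest nuclear region. Within the optimal list, whose median nuclear region had 70.4, sls-2.8 and sls-2.4 were below the median and the other 3 above it. The lowest ranked of them, sls-2.4, was close to the end of the optimal list, whose weakest region had 62.65 against 62.42 for the next pooled region.

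**Figure D3:**
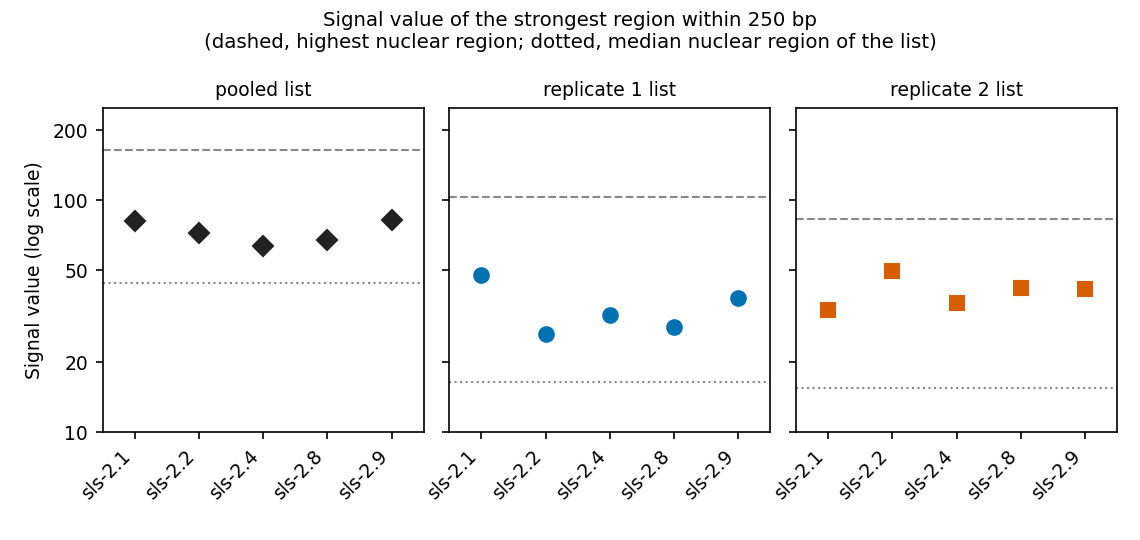
Signal value (log axis) of the strongest region within 250 bp of each of the 5 genes in the pooled list, replicate 1 and replicate 2. The dashed line is the highest and the dotted line the median nuclear region of that list. Every gene lies between the lines, and the order of the genes differs between the replicates.

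The summits did not sit at 1 fixed place in the genes. The following coordinates are those of build ce11, 1-based. sls-2.1 (ZK1248.18) had its optimal region on chromosome II at 5844706 to 5845161, with the summit at 5844934, inside the gene and 69 bp past its 5′ end. The replicates put it 106 bp past the 5′ end in replicate 1 and 70 bp in replicate 2, so all 3 lay inside the gene. sls-2.2 (C17C3.16) had its region on chromosome II at 5543465 to 5543920, with the summit at 5543693, 95 bp past the 5′ end. In replicate 1 it was at 100 bp and in replicate 2 at 69 bp, again all inside the gene.

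sls-2.8 (Y75B8A.38) had its region on chromosome III at 12250348 to 12250803. Its summit at 12250576 lay 1 bp past the 3′ end of the gene in the optimal list and in replicate 2, and 32 bp past it in replicate 1. sls-2.4 (R12E2.16, chromosome I, 4172206 to 4172315, plus strand) had its region at 4172169 to 4172624. The summit at 4172397 lay 82 bp past the 3′ end in the optimal list and in replicate 2, whereas replicate 1 put it inside the gene, 60 bp past the 5′ end. In that case the replicates placed the strongest summit on different sides of the gene's end.

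sls-2.9 (M01E5.7, chromosome I, 13297877 to 13297985, plus strand) was the 1 gene of the 5 with its strongest summit upstream. The region ran from 13297470 to 13297925, and the summit at 13297698 lay 179 bp before the 5′ end, against 153 bp in replicate 1 and 189 bp in replicate 2. The pooled summit fell within M01E5.t1, a gene for tRNA-Lys (13297673 to 13297745, minus strand) and within the non-coding RNA gene M01E5.8 (13297659 to 13297746, plus strand). sls-2.9 had a weaker region of its own, with a summit 29 bp past its 5′ end and a pooled signal value of 61.9 at rank 106, just outside the optimal list. The same region had a signal value of 22.1 at rank 2309 in replicate 1 and 32.1 at rank 103 in replicate 2. The optimal list thus held no summit inside sls-2.9.

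**Figure D4:**
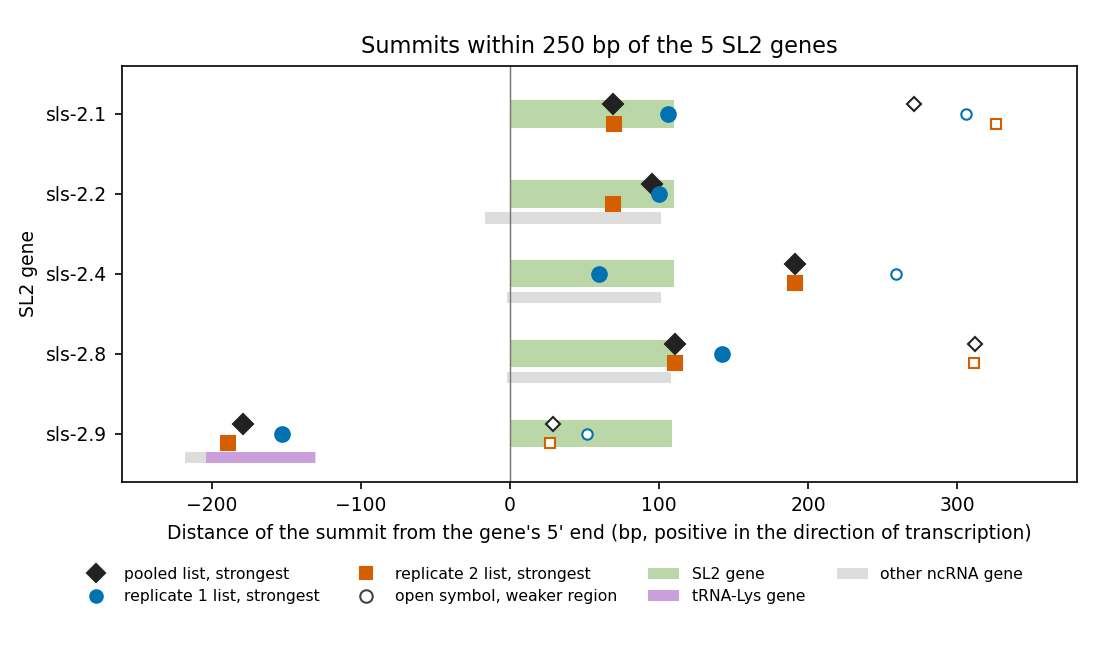
Distance of each summit within 250 bp of the 5 genes from the gene's 5′ end (bp, positive in the direction of transcription). Filled symbols are the strongest region of the pooled list, replicate 1 and replicate 2, and open symbols a weaker region of the same list. Bars are the SL2 gene and annotated tRNA and other non-coding RNA genes. Protein-coding genes are not drawn, though some lie in the range shown. The strongest summits of sls-2.1 and sls-2.2 lie inside the gene in every list, and those of sls-2.9 lie 153 to 189 bp upstream of it.

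Weaker second regions lay downstream of the strongest one, in the direction of transcription, wherever a second summit was found within 250 bp. The optimal list held none. sls-2.1 had one in each of the other 3 lists, 202 bp further on with a pooled signal value of 45.9, 200 bp further on with 23.7 in replicate 1 and 256 bp further on with 14.4 in replicate 2. sls-2.8 had one 201 bp further on in the pooled list, with 41.3, and one 200 bp further on in replicate 2, with 30.6. sls-2.4 had one in replicate 1, 199 bp further on, with 18.8. Spacing near 200 bp is also the closest that the lists hold, since the smallest gap between nuclear summits was 199 bp in the pooled list and in both replicates. Of the nuclear regions, 3.6% in the pooled list, 12.5% in replicate 1 and 10.2% in replicate 2 had another summit within 250 bp.

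No other sls gene had an optimal or pooled summit. In the optimal list 0 of the 14 other SL2 genes and 0 of the 12 SL1 genes had a summit within 250 bp, against 2 of 99 other snRNA genes (2.02%) and 148 of all 46890 nuclear genes (0.316%). In the pooled list the counts were again 0 and 0, against 11 other snRNA genes (11.1%) and 2.99% of all nuclear genes. The rule that chose the genes used this contrast, so nothing is read from it.

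In the lenient lists 5 of the 14 other SL2 genes had a summit in replicate 1 (35.7%) and 4 in replicate 2 (28.6%), against 25.1% and 19.6% of all nuclear genes. Other snRNA genes had one in 33 of 99 cases (33.3%) in replicate 1 and in 23 (23.2%) in replicate 2. The other SL2 genes were thus near the other snRNA genes in these long lists. The share of all nuclear genes counts a summit anywhere along a gene, so it depends on gene length. Within 250 bp of a protein-coding 5′ end the shares were 9.61% in replicate 1 and 7.14% in replicate 2. Of the other SL2 genes, only sls-2.11 had a summit in both replicates. Its signal values were 15.6 at rank 10868 in replicate 1 and 18.5 at rank 2858 in replicate 2. The strongest in replicate 1 was beside sls-2.14, 28.0 at rank 539 and 196 bp from the gene, which is above the value of sls-2.2 at rank 765 and below that of sls-2.8 at rank 504. The strongest in replicate 2 was inside sls-2.15, 22.9 at rank 795. The others were sls-2.3 (rank 1464), sls-2.13 (rank 11104) and sls-2.16 (rank 6212) in replicate 1, and sls-2.17 (rank 4799) and sls-2.18 (rank 4285) in replicate 2. sls-2.5, sls-2.6, sls-2.7, sls-2.10, sls-2.12 and sls-2.19, of which the annotation gives the last as a pseudogene, had none in any list.

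sls-2.3 was the sls gene nearest to an optimal summit without being counted. It faces sls-2.2 on the opposite strand, 457 bp away, and the optimal summit of sls-2.2 lay 471 bp from it. The summit of its stronger replicate 1 region (signal value 23.9) fell between these genes, 181 bp from sls-2.3 and 276 bp from sls-2.2. A weaker replicate 1 region, with a signal value of 15.1 at rank 12200, had its summit 40 bp upstream of the 5′ end of sls-2.3.

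How much of each gene can be told from the rest of the genome was read from words of 36 bases, each called single-copy when it occurs once on either strand of the reference. Within 250 bp of the 5 genes, 89.8% to 100% of such words were single-copy, with a median of 91.5%, against 65.4% to 100% with a median of 89.4% at the other SL2 genes. Words that start inside the gene were single-copy in 60.0% of cases for sls-2.1, 68.2% for sls-2.2 and 85.5% for sls-2.4, and in all cases for sls-2.8 and sls-2.9. Starts were read on the reference's forward strand, so for a minus-strand gene these words end in the gene and can reach upstream of it. sls-2.3 shares its leader with the first 3 but lies on the minus strand. Its share, so read, was 43.6% and cannot be compared with theirs. Around SL1 genes 0% to 21.9% of words were single-copy, with a median of 0%, and inside them none were. How the authors treated reads that match several places is not given in the sources used here, and its part in the counts of SL1 and SL2 genes was not tested. Of the words that start, on the forward strand, inside the minus-strand tRNA-Lys gene M01E5.t1, next to sls-2.9, 43.8% were single-copy.

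**Figure D5:**
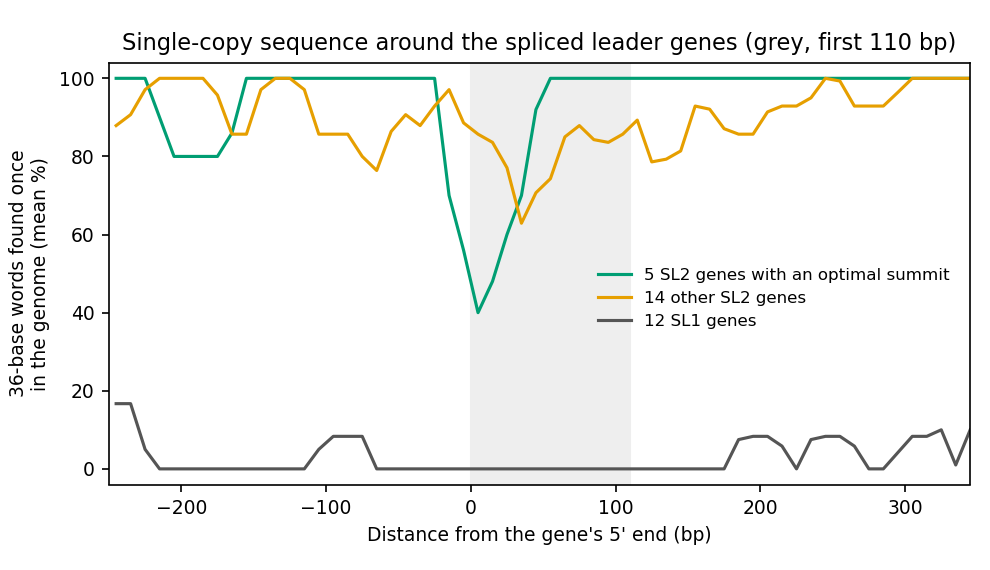
Mean share of 36-base words that occur once in the genome, in steps of 10 bp along the distance from the gene's 5′ end (bp), for the 5 SL2 genes with an optimal summit, the 14 other SL2 genes and the 12 SL1 genes. Each word is placed by its first base for plus-strand genes and by its last base for minus-strand genes. All 5 genes but only 6 of the 14 others are on the plus strand, so the lines are offset by up to a word's length. The grey band is the first 110 bp of the gene. Both SL2 lines dip near the start of the gene, and the exact places of the dips cannot be compared. The SL1 line is at 0 across the gene and reaches at most 16.7%, at the far upstream end.

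The surroundings of the 5 genes differed in several counts from those of the other SL2 genes, given here as a description. All 5 were on the plus strand, against 6 of 14. None lay inside a protein-coding gene, against 7 of 14. Another SL2 gene lay within 10000 bp of 1 of the 5 (sls-2.2), against 12 of 14. An annotated antisense non-coding RNA overlapped 3 of the 5, against 2 of 14, and a tRNA gene lay within 1000 bp of 1 of the 5 (sls-2.9), against 0 of 14. GC content within 250 bp was 37.2% to 41.9% with a median of 38.7%, against 33.2% to 43.0% with a median of 36.5% at the other SL2 genes and 46.5% to 47.2% at SL1 genes.

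Other genes stood near the same summits. Within 1000 bp of the sls-2.1 summit lay nep-25, which encodes a neprilysin-type metallopeptidase (314 bp away), ZK1248.17 (320 bp) and H41C03.3 (843 bp). Near the sls-2.2 summit were the antisense RNA gene C17C3.23, in which the summit also fell and which overlaps sls-2.2 by 101 bp, the RNA gene C17C3.22 (480 bp) and the insulin-like gene ins-13 (819 bp). The sls-2.4 summit was nearer to the protein-coding gene R12E2.11 (41 bp) than to sls-2.4, and 808 bp from egg-5, which encodes a pseudophosphatase needed for the oocyte-to-embryo transition. The antisense RNA gene R12E2.18, which overlaps sls-2.4 by 101 bp, was 91 bp from it. The sls-2.8 summit was 4 bp from the antisense RNA gene Y75B8A.49, 84 bp from Y75B8A.23, 412 bp from tim-1, which encodes a Timeless family protein, and 916 bp from pifk-1A. The sls-2.9 summit was 140 bp from top-1, which encodes topoisomerase I, and 506 bp from sepa-1, which encodes an adaptor for autophagy of P granule components. With summits this close to several genes, the lists do not tell which gene a region belongs to.

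The genes whose ranks were most like those of the 5 were also chosen by rank. Likeness was the summed absolute difference of log10 ranks from the median ranks of the 5 genes over 3 lists (pooled, replicate 1 and replicate 2), among the 141 genes, sls genes left out, that had an optimal summit within 250 bp and a region in both replicates as well. The nearest were the snoRNA gene Y43F8C.22 (chromosome V, 19643050 to 19643187) and the protein-coding gene Y43F8C.7 that holds it (19641292 to 19644030), which share a region with a signal value of 73.0 and ranks of 55, 253 and 46, at a distance of 0.0588. Next was mrpr-1 (chromosome II, 7200233 to 7200418), which encodes the RNase MRP RNA, with a signal value of 66.9, ranks of 76, 181 and 48, and a distance of 0.284.

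Genes for proteins that make or use spliced leader RNAs had no optimal or pooled summit at their 5′ ends. The list held 22 genes, all found in the annotation, for Sm proteins (snr-1 to snr-7), proteins of the spliced leader particle (sna-1, sna-2, sut-1), subunits of the SNAP complex (snpc-4 and the snpc-1 and snpc-3 genes), the TATA-binding protein (tbp-1), the 3′ end factor CstF (cpf-1, cpf-2) and the enzyme that trimethylates the cap (tgs-1). In the optimal and pooled lists 0 of 22 had a summit within 250 bp of the 5′ end, against 0.0901% and 0.811% of 19971 protein-coding genes. In replicate 1, 2 of 22 had one, snr-5 at rank 15258 and snr-6 at rank 5224, against 9.61%. In replicate 2, 1 of 22 had one, sna-2 at rank 1737, against 7.14%. These counts were near the background.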

How the data were processed

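Peak lists from anti-GFP ChIP-seq of 2 biological replicates were used. The authors deposited them in narrowPeak layout. Per the notes deposited with the files, each lenient list was made from a replicate's alignment, or from both together, and 1 control alignment, and the optimal list came from these by the irreproducible discovery rate procedure. Which aligner and which peak caller were used is not given in the sources used here. Each region carries a score deposited by the authors, its signal value, of unstated scale. A further deposited column, −log10 q by the layout, only describes the regions. Read that way, it gave the 5 genes' optimal regions q values of 0.126 to 0.143, and no region of any list had a q below 0.0726. The deposited summit offset was added to the region's start. No read counts were analysed, so depth is unknown and no interval is given.

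A summit counted for a gene within 250 bp of its nearest base, and the strongest such region was reported. All regions of the ce11 lists ended inside the chromosomes of WBcel235, whose RefSeq annotation gave genes and positions. Identity came from global alignments (Biopython 1.88), and the tables from Python 3.11.15, pandas 2.3.3 and numpy 2.4.6. The distance rule was checked on summits placed at known distances. Genes named are the 5 genes, other sls genes with a summit in any list or nearest to an optimal one, genes within 1000 bp of the 5 summits, and the 3 genes most alike in rank. Outside this rule, the gene list for trans-splicing is named in full, and the remaining SL2 genes, sup-6 and W05B2.8 were named after their values were seen. The 5 genes and the gene lists were chosen with earlier results of these data known, so no test was run. The alternatives tried were other distances and rules for a summit, single replicates, a stricter list, nuclear ranks, other word lengths, and build ce10.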

Additional observations from a re-analysis of the deposited data

How the results depend on the processing

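Of 28 alternatives, 20 gave a value within 1.5 times the one reported or, for single-copy shares, within the spread between genes. The count of 5 SL2 genes with an optimal summit was 2 to 5 when 1 replicate was left out and its partner's strongest 102 regions were used, with 2 in replicate 1 alone (sls-2.1 and sls-2.9) and 5 in replicate 2 alone. It was 2 in the stronger part of the optimal list, split at its middle rank, 4 within 100 bp and 6 within 500 bp. For the other sls genes the count of 0 became 1 within 500 bp, namely sls-2.3, which is the 6th gene, and was 0 to 0 with single replicates. The median rank of the 5 genes in the pooled list was 39 in place of 60 among nuclear regions only. In replicate 2 it was 24 in place of 44 among nuclear regions, and 68 with the nearest region in place of the strongest. In replicate 1 the nearest region gave 504 in place of 252. The remaining alternatives were chosen after seeing the data. The ce10 optimal list of 94 regions gave 4 genes, without sls-2.4, which is at rank 98 of the ce10 pooled list. Regions were matched between builds by chromosome, width and signal value. None of the 5 genes' strongest replicate 2 regions had a match in the ce10 replicate 2 list of 14827 regions. In replicate 1 only sls-2.1 and sls-2.9 had a single match. Replicate 2 ranks were thus not compared between builds. Leaving out summits inside a tRNA, snoRNA, rRNA or miRNA gene gave 4, without sls-2.9. Leaving out summits inside any RNA gene other than an snRNA gave 3, also without sls-2.2, whose summit lies in C17C3.23. No paired analysis was possible because the study has 1 group. The depth behind the lists is unknown, and with 5 genes and 2 replicates no error is given.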
